A study of Mus musculus with 5 samples.

Results

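Tcf7+ Pdcd1+ CD8+ cells are CD8 T cells in which both Tcf7, the gene for the transcription factor TCF-1, and Pdcd1, the gene for the inhibitory receptor PD-1, were detected. In the T cell libraries of the study, 79 of 3144 CD8+ cells met this description, 40 of 1413 from sensitive tumors and 39 of 1731 from resistant tumors, out of 11119 barcodes in all 5 libraries of the series. Members were chosen on measured values: at least 1 unique molecular identifier (UMI) of Cd3d, Cd3e or Cd3g, of Cd8a or Cd8b1, of Tcf7 and of Pdcd1, no UMI of Cd4 or of Havcr2, which encodes TIM-3, and fewer than 2 of the 5 cycle genes Mki67, Top2a, Birc5, Ccna2 and Ube2c detected. With Itgae and Ly6c2 also required at 0 the choice left 41 cells, 15 sensitive and 26 resistant, and these 2 conditions were therefore dropped. The levels of all these genes in members are a description of the choice and not a result.

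Tumors were of 4T1-Thy1.1, a murine breast carcinoma line that carries Thy1.1, placed into a mammary fat pad of BALB/c mice. Both groups received doxorubicin (DOX) at 5 mg/kg intravenously in 3 doses, 3 days apart, and tumors were sorted by growth under treatment into sensitive and resistant ones, so no untreated T cells were compared here. T cells were enriched from dissociated tumors with magnetic beads, by depletion of other cells and of Thy1.1-bearing (CD90.1) cancer cells, and cells of 3 tumors were pooled into 1 library per group for droplet 3′ single-cell RNA sequencing. Each group thus had 1 library, no difference could be set against a spread between mice, no test was run, and all intervals below are 95% intervals that cover counting error only.

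CD8 T cells that meet antigen for a long time, as in tumors, take on inhibitory receptors and lose effector function, a state called exhaustion. A minority of PD-1+ cells keeps TCF-1 and lacks TIM-3. These progenitor or stem-like exhausted cells are known to self-renew, to give rise to TIM-3+ terminally exhausted cells, to express the surface receptor SLAMF6, and to be the cells that proliferate after blockade of PD-1.

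Members lay at the limit of detection of the genes that defined them. Tcf7 (chromosome 11, 52252371 to 52283014, minus strand, mm10) had exactly 1 UMI in 33 of 40 sensitive and 25 of 39 resistant members and at most 4 UMIs in any. Pdcd1 (chromosome 1, 94038305 to 94052553, minus strand) had 1 UMI in 18 and 14 members, with a median of 2 in both libraries and highest values of 14 and 9. Just outside the choice, 5 sensitive and 3 resistant cells met every condition except that they held 1 or 2 UMIs of Havcr2, and 6 and 13 cells had 2 or more of the cycle genes. In the resistant library 11 further cells met the conditions but had over 10% mitochondrial UMIs, and 6 members lay between 9% and 10%. Of the members 10 sensitive and 4 resistant cells held Itgae, the integrin chain of CD103, and 21 and 10 held Ly6c2.

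Depth and free RNA bear on these calls. Sensitive members had a median of 4894 UMIs (1111 to 12678) and resistant members 5888 (2401 to 19805), against medians of 4110 and 4795 over all CD8+ cells, and the median mitochondrial share was 2.47% and 4.90%. Cells of the same libraries gated as fibroblasts, which should lack T cell genes, held Tcf7 in 1.61% (13 of 806) and 2.85% (16 of 562) of cells at median depths of 13044 and 13806 UMIs, while Tcf7 was seen in 10.8% and 6.18% of CD8+ cells. Pdcd1 was seen in 0.124% and 0% of the fibroblast-gated cells, a count of 0 of 562 that allows up to 0.654%. The part of free Tcf7 RNA in members with a single UMI was not tested. By doublet score, 6 of 40 sensitive and 5 of 39 resistant members were marked as possible droplets of 2 cells. Among all CD8+ cells 46 of 1413 and 92 of 1731 were marked, a smaller share than of members in both libraries. The libraries shared 31 barcodes, none of them a member. No cell of the 3 whole-tumor libraries met the conditions; these libraries held 10, 0 and 8 CD8+ cells in the control, sensitive and resistant tumor.

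The share of members among CD8+ cells did not differ between sensitive and resistant tumors beyond counting error. Without thinning the share was 2.83% (2.03 to 3.84) in sensitive and 2.25% (1.61 to 3.07) in resistant tumors, with a ratio of 1.26 (0.813 to 1.94). When each cell was thinned to 1000 UMIs, so that depth was equal, only 5 of the 1322 and 5 of the 1548 cells still CD8+ met the conditions, 0.378% and 0.323%, with a ratio of 1.17 (0.340 to 4.04); 42 sensitive and 7 resistant barcodes were too shallow to enter. Over 10 other random draws the counts ran from 3 to 8 and from 1 to 7. At 2000 UMIs the counts were 18 and 14 and the ratio 1.59 (0.792 to 3.18). A difference in abundance between the tumors was therefore not detectable at this depth. With cells kept up to 20% mitochondrial UMIs the thinned counts were 7 of 1352 and 2 of 2159, a ratio of 5.59 (1.16 to 26.9). This setting drew the thinned UMIs anew. Other draws alone took the resistant count from 1 to 7, so the part of the filter cannot be told apart from that of the draw. Tcf7+ cells that lacked Pdcd1 and Havcr2 were at 2.80% (1.98 to 3.84) of thinned sensitive and 0.969% (0.543 to 1.59) of thinned resistant CD8+ cells, a ratio of 2.89 (1.59 to 5.24), and whether this ratio differs from that of members was not tested.

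**Figure D1:**
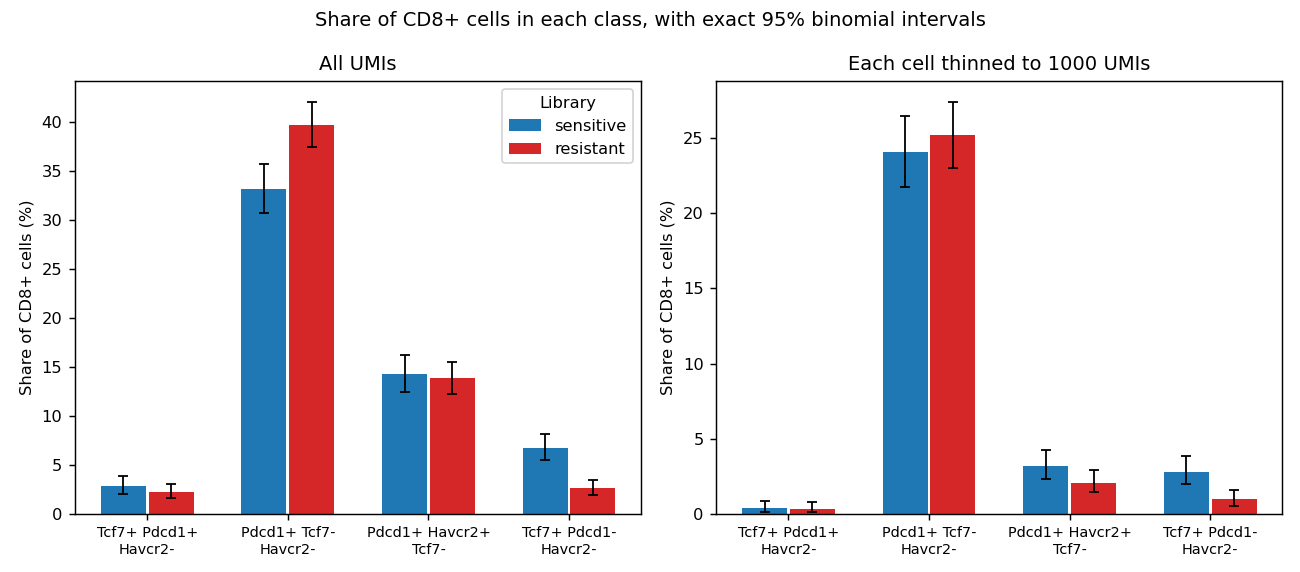
Share of CD8+ cells (%, vertical axis) in each class for the sensitive (blue) and resistant (red) library, with all UMIs at left and with each cell thinned to 1000 UMIs at right; bars are shares and error bars exact 95% binomial intervals. The intervals of the Tcf7+ Pdcd1+ class overlap between the libraries in both panels, while those of the Tcf7+ Pdcd1- class (2.80% and 0.969% thinned) do not.

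Slamf6, the surface receptor that marks progenitor exhausted cells and that the choice did not use, was found in about the same share of members in both libraries and more often than in other PD-1+ cells. Slamf6 (chromosome 1, 171917515 to 171953170, plus strand) was seen in 10 of 40 sensitive members (25%, 12.7 to 41.2) and 11 of 39 resistant members (28.2%, 15 to 44.9), at 62.1 and 67.4 CPM, the UMIs of a gene summed over the cells and scaled to the same total of all genes. In Pdcd1+ CD8+ cells without Tcf7 or Havcr2 (468 sensitive and 687 resistant cells) it was seen in 5.56% and 3.20%, and the CPM of members was 4.18-fold (2.03 to 8.10) and 10.9-fold (5.50 to 20.9) higher. In Pdcd1+ Havcr2+ cells without Tcf7 (201 and 239 cells) Slamf6 was seen in 3.48% and 1.26%, and in Tcf7+ cells without Pdcd1 or Havcr2 (95 and 45 cells) in 21.1% and 15.6%, near the members. Among fibroblast-gated cells the share was 0.124% and 0.178%. Thinned to 1000 UMIs, Slamf6 remained in only 2 members of each library (5.00% and 5.13%), against 1.72% and 1.02% of Pdcd1+ cells without Tcf7 or Havcr2, with intervals that overlapped. The CPM ratio of Slamf6 in sensitive over resistant members was 0.921 (0.411 to 2.01). It was 1.87 with doublets removed and 1.54 with the Itgae and Ly6c2 conditions.

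The other genes of the progenitor exhausted list gave a mixed account. Tnfsf8, which encodes the ligand of CD30, had 19 UMIs in 7 sensitive members and 17 UMIs in 13 resistant members, 4.65-fold (2.57 to 8.09) and 2.14-fold (1.21 to 3.56) over Pdcd1+ cells without Tcf7 or Havcr2. Traf1, a signalling adaptor of tumor necrosis factor receptors, was seen in 57.5% and 51.3% of members with 53 and 31 UMIs, and was 1.58-fold (1.16 to 2.11) and 1.06-fold (0.715 to 1.53) of those cells. Cd200 (5 and 10 UMIs) and Eomes (4 and 9 UMIs) were sparse. Cxcr5, the follicular chemokine receptor, had 0 UMIs in both libraries, which allows a share of up to 8.81% of 40 and 9.03% of 39 members. Id3, a transcriptional regulator kept in progenitor cells, had 0 UMIs in sensitive and 5 in resistant members, and the transcription factors Bach2 (1 and 2 UMIs), Myb (0 and 2) and Bcl6 (2 and 2) were at or below the limit of detection. In Pdcd1+ cells without Tcf7 or Havcr2 Id3 was at 35.6 and 71.0 CPM, but fibroblast-gated cells held it at 398 and 475 CPM, and with cells carrying UMIs of other cell types left out of both classes the resistant library had 4 UMIs in members and 13 in those cells, 4.71-fold higher in members instead of 0.28-fold. Of 7 genes of the list with enough UMIs for that comparison, 2 (Slamf6 and Tnfsf8) were at least 2-fold higher in members in both libraries and 1 (Id3) lower, at medians of -0.23 and 1.10 log2 units against 0.01 and -0.06 over all genes. Xcl1, the chemokine for cross-presenting dendritic cells, was frequent in members of both libraries and is described below. The cells are called here by the genes that chose them.

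**Figure D2:**
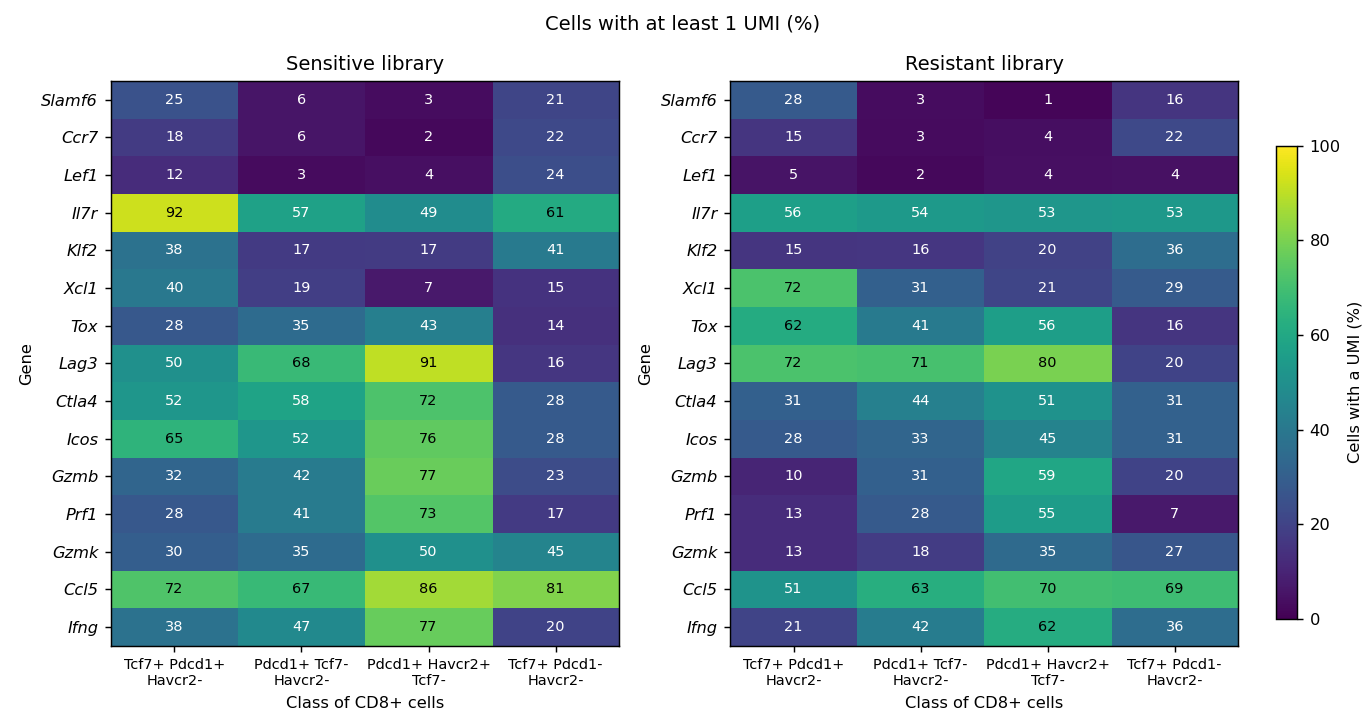
Percent of cells with at least 1 UMI of each gene (rows) in members and the other classes of CD8+ cells (columns), for the sensitive library at left and the resistant library at right, as numbers and on a colour scale from 0 to 100%. Slamf6 and Ccr7 stand higher in both Tcf7+ classes than in the Pdcd1+ Tcf7- classes, and Gzmb and Prf1 are seen most often in the Pdcd1+ Havcr2+ class.

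Set against Pdcd1+ Havcr2+ CD8+ cells, members held more RNA of Ccr7 and Cxcr3 and less of perforin and several granzymes in both libraries. Of 5053 genes with at least 30 UMIs in the cells compared in each library, 25 were at least 2-fold higher in members in both libraries (0.495%) and 89 at least 2-fold lower (1.76%). Ccr7, the receptor that guides T cells to lymph nodes, had 52 UMIs in 7 sensitive members and 25 UMIs in 6 resistant members, 34.5-fold (16.8 to 79.6) and 4.97-fold (2.82 to 8.66) over the Havcr2+ cells. Cxcr3, the receptor for the interferon-induced chemokines, was 6.44-fold (4.04 to 10.3) and 5.21-fold (2.63 to 10.2) higher, and Itgb7, an integrin chain for homing to the gut, 3.29-fold and 3.04-fold. Of 4 chemokine receptor genes 1, Cxcr3, was at least 2-fold higher in both libraries and 0 lower. Further genes among the 10 highest were Tnf (5.67-fold and 6.77-fold), Cd7 (9.41-fold and 3.12-fold), Emb (3.23-fold and 4.48-fold) and Ly6c2 (3.55-fold and 2.89-fold). Ly6c2 is 1 of the genes of the dropped conditions, and with those conditions kept Itgb7 was 1.13-fold in the sensitive and Cd7 1.94-fold in the resistant library. Of the Tnf UMIs, 51 of the 66 in resistant members lay in 1 cell. Cxcl10, an interferon-induced chemokine, was 63.6-fold and 2.66-fold higher through 4 and 5 members, and 0.481-fold in the resistant library when cells were kept up to 5% mitochondrial UMIs.

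Effector genes stood on the other side of this comparison with Pdcd1+ Havcr2+ cells. Gzmd, a granzyme gene, had 0 UMIs in members of both libraries and 194 and 565 UMIs in the Havcr2+ cells, at least 10.8-fold and 29.6-fold higher there when 0 is read as a floor of 3 UMIs. Prf1, the pore-forming perforin, was 0.174-fold (0.115 to 0.253) and 0.0691-fold (0.0252 to 0.151) in members, and Gzmc, another granzyme, 0.168-fold and 0.0468-fold. Gzmb differed between the libraries, at 0.528-fold (0.471 to 0.589) and 0.0256-fold (0.0117 to 0.0486). Of 13 measured cytotoxic effector genes with enough UMIs, 5 were at least 2-fold lower in members in both libraries and 0 higher, at medians of -0.92 and -3.86 log2 units against -0.01 and -0.04 over all genes. Of 6 naive and memory genes 1 was higher in both libraries and 0 lower. Spp1, osteopontin, was 0.0960-fold and 0.0888-fold. The other 8 of the 10 lowest genes were genes that fibroblasts express, such as Col3a1 (0.04-fold and 0.05-fold) and Col1a1 (3 and 0 UMIs in members against 130 and 145): 5.47% and 3.77% of the Havcr2+ cells, and 0% (0 of 40) and 7.69% (3 of 39) of members, carried 10 or more UMIs of 20 fibroblast, cancer, macrophage and neutrophil markers. With such cells left out of every class Col1a1 had 3 UMIs in members and 10 in the Havcr2+ cells of the sensitive library, 1.52-fold higher in members, and Gzmd, Spp1, Gzme, Gzmc and Prf1 were the 5 lowest genes.

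Against Tcf7+ cells without Pdcd1 or Havcr2, members held more RNA of Tnfrsf9, Lag3 and Tox in both libraries, while most genes of the exhaustion and immediate early lists did not pass 2-fold in both. Of 2060 genes, 20 were at least 2-fold higher in members (0.971%) and 37 at least 2-fold lower (1.8%). Tnfrsf9, the activation-induced costimulatory receptor 4-1BB, was 9.09-fold (4.53 to 20.2) and 4.23-fold (2.43 to 7.82) higher. Lag3, an inhibitory receptor, was 4.23-fold (2.64 to 6.93) and 2.94-fold (1.79 to 5.01) higher, and Tox, the transcription factor of the exhaustion program, 2.54-fold (1.26 to 5.20) and 3.15-fold (1.61 to 6.63). The chemokine gene Ccl3 was 3.20-fold and 5.28-fold higher, the nuclear receptor gene Nr4a2 3.44-fold and 2.78-fold, Tnf 2.69-fold and 9.39-fold, Rbpj, which acts in Notch signalling, 2.50-fold and 3.57-fold, and the receptor gene Klre1 3.22-fold and 4.10-fold. By list, 2 of 5 exhaustion factors, 1 of 4 inhibitory receptors, 3 of 5 cytokines and chemokines, 1 of 6 costimulatory receptors and 0 of 9 immediate early genes were at least 2-fold higher in both libraries, with 0 lower in each. The median of the exhaustion factors was 1.34 log2 units for sensitive and 0.15 for resistant tumors, against 0.06 and 0.04 over all genes, and that of the immediate early genes 0.45 and -0.39. Nr4a1 (2.02-fold and 0.548-fold), Nfatc1 (3.26-fold and 0.697-fold), Ctla4 (3.26-fold and 1.03-fold) and Icos (3.04-fold and 0.581-fold) passed 2-fold in the sensitive library and not in the resistant one, a difference between libraries that was not tested. Tox was 1.77-fold in the sensitive library as a mean over cells, and Tnf 1.71-fold there with the Itgae and Ly6c2 conditions. Pdcd1 itself was part of the choice that separates these Tcf7+ classes.

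The naive and memory genes with enough UMIs did not pass 2-fold in both libraries between these Tcf7+ classes. Il7r was 1.37-fold (1.05 to 1.78) in the sensitive and 0.98-fold (0.64 to 1.48) in the resistant library, and Ccr7 2.51-fold (1.63 to 3.90) and 1.78-fold (0.89 to 3.70). Gzmk, the granzyme of early memory-like cells, was 0.57-fold (0.39 to 0.82) and 0.52-fold (0.23 to 1.13). The 6 naive and memory genes, 0 of them at least 2-fold higher or lower in both libraries, had medians of -0.13 and -0.44 log2 units. Ly6c1 was 0.559-fold (0.467 to 0.666) and 0.194-fold (0.135 to 0.272), and Klf2 0.711-fold (0.504 to 0.990) and 0.338-fold (0.187 to 0.587). Fibroblast-gated cells also held Ly6c1 (71.1% and 80.2% of them thinned to 1000 UMIs) and Klf2 (19.1% and 19.6%). With every cell that held a UMI of a fibroblast marker left out of both classes, Ly6c1 was 0.681-fold (0.542 to 0.850) and 0.192-fold (0.127 to 0.281), while Klf2 was 1.06-fold (0.727 to 1.53) in the sensitive and 0.293-fold (0.160 to 0.515) in the resistant library. The genes at the low end were connective tissue genes, among them Col3a1 (3 and 2 UMIs in members against 170 and 402), Fn1 and C3. Gzmb went opposite ways, at 6.64-fold in the sensitive and 0.166-fold in the resistant library. Cells with UMIs of other cell types were 4.21% and 4.44% of the comparison class, and once they were left out 17 genes were higher and only 1 gene lower in both libraries.

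Against Pdcd1+ cells without Tcf7 or Havcr2, members held more RNA of Slamf6 and Ccr7. Of 7036 genes, 31 were at least 2-fold higher in both libraries (0.441%) and 207 at least 2-fold lower (2.94%). Beside Slamf6, Ccr7 was 6.16-fold (4.31 to 8.73) and 4.20-fold (2.59 to 6.59) higher, the interferon-induced genes Cxcl10 13.3-fold and 3.94-fold and Ifit3 2.49-fold and 2.66-fold higher, and Tnf 2.61-fold and 7.75-fold higher. Of 8 genes of the interferon-stimulated list 1, Ifit3, was at least 2-fold higher in both libraries and 0 lower, with medians of 0.14 and 0.66 log2 units against 0.01 and -0.06 over all genes. Without cells carrying markers of other cell types resistant Tnf was 2.0-fold, and with the Itgae and Ly6c2 conditions sensitive Tnf was 1.83-fold. Neither interferon-induced gene held in every choice of cells: Cxcl10 was 0.954-fold in the resistant library with cells up to 5% mitochondrial UMIs, and Ifit3 0.517-fold in the sensitive library with the Itgae and Ly6c2 conditions. Tcrg-C4, a gamma receptor constant gene, had 9 UMIs in members of each library and was 4.22-fold and 5.13-fold higher. The genes lower in members were led by collagens: Col1a1 had 3 and 0 UMIs in members and 1129 and 4038 in the comparison cells, 3.85% and 6.26% of which held UMIs of other cell types. Leaving such cells out took the lower genes from 207 to 63, and the higher genes again numbered 31.

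By genes that the choice did not use, members did not form a group of their own. CD8+ cells were clustered without those genes into 16 clusters and members fell into 11 of them. Clusters 1, 5 and 7 held 36 of 79 members (45.6%) and 17.5% of CD8+ cells, and cluster 0, with 16.2% of CD8+ cells, held as many members as cluster 7. With fewer clusters (11, at a resolution of 0.5 in place of 1) the 3 clusters with most members held 67.1% of them and 74.3% of CD8+ cells, so that members then lay where most CD8+ cells lay. Cluster 1, led by Foxp3, Ncr1 and Tnfrsf4, held 25% of sensitive and 10.3% of resistant members but 4.74% and 2.14% of CD8+ cells, although Foxp3, the factor of regulatory T cells, had just 1 UMI in all members. Cluster 7, with Slamf6, Cxcr4, S1pr1 and Lef1 among its leading genes, which mark naive and recirculating T cells, held 20% and 5.13% of members, 44.3% of the Tcf7+ cells without Pdcd1 and 0.227% of the Pdcd1+ Havcr2+ cells. Cluster 5, led by the interferon-induced genes Rsad2, Ifit3 and Ifit1, held 10.0% and 20.5% of members, and cluster 0, led by Xcl1 with Tox among its 10 leading genes, 5.00% and 20.5%. Cluster 8, led by Itgae and Ly6c2, held 20% of sensitive members and 2.56% of resistant ones. Cluster 11, led by the neutrophil genes Cxcl2 and S100a9, held 3 resistant members.

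The nearest neighbours of members included other Tcf7+ cells more often than those of other CD8+ cells did. Of the nearest cells of a sensitive member in the graph, 6.82% were members and 13.9% Tcf7+ Pdcd1- cells, against 2.70% and 6.22% around other CD8+ cells of that library. The values around resistant members were 6.31% and 6.88%, against 2.10% and 3.10%. Pdcd1+ Havcr2+ cells made up 7.64% and 8.38% of the neighbours of members, against 14.9% and 13.7% of those of other CD8+ cells. Pdcd1+ cells without Tcf7 or Havcr2 were the most frequent neighbours of members, at 34.4% and 50.5%, against 33.3% and 40.3% around other CD8+ cells.

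**Figure D3:**
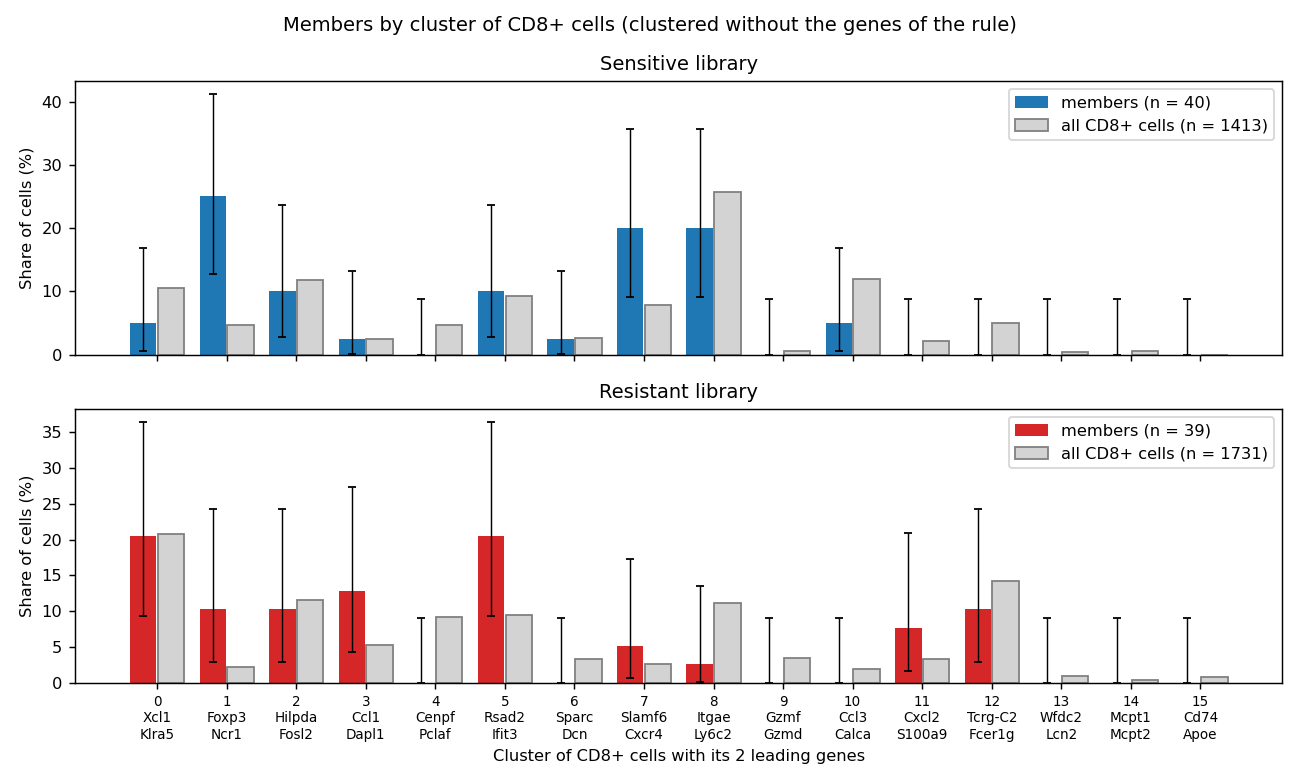
Share of members (coloured bars with exact 95% binomial intervals) and of all CD8+ cells (grey bars) in each of 16 clusters of CD8+ cells, as a percent of the cells of each library, with the sensitive library above and the resistant library below. In the sensitive library the members exceed all CD8+ cells most in clusters 1 and 7, and in the resistant library in clusters 5, 1 and 3.

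Within the members, the library from sensitive tumors held more RNA of most cytotoxic effector and naive and memory genes with enough UMIs, and the library from resistant tumors more Xcl1. Of 2088 genes with at least 30 UMIs in members, 152 were at least 2-fold higher in the sensitive library (7.28%) and 64 at least 2-fold lower (3.07%). The median gene was 1.10-fold higher in the sensitive library (0.14 log2 units), and scaled to that median the counts were 104 higher and 91 lower. Of 6 naive and memory genes 5 were at least 2-fold higher, with a median of 2.51-fold. Of 8 cytotoxic effector genes 6 were higher (median 4.89-fold), and without Gzma and Gzmf, which rested on 1 cell each, 4 of 6 were (median 3.22-fold). Of 6 exhaustion factors 3 (median 2.24-fold), of 7 costimulatory receptors 2 and of 6 cytokines and chemokines 3, with 0 lower in each of these lists. Of 8 interferon-stimulated genes 0 were higher and 1 was lower (median 0.850-fold).

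**Figure D4:**
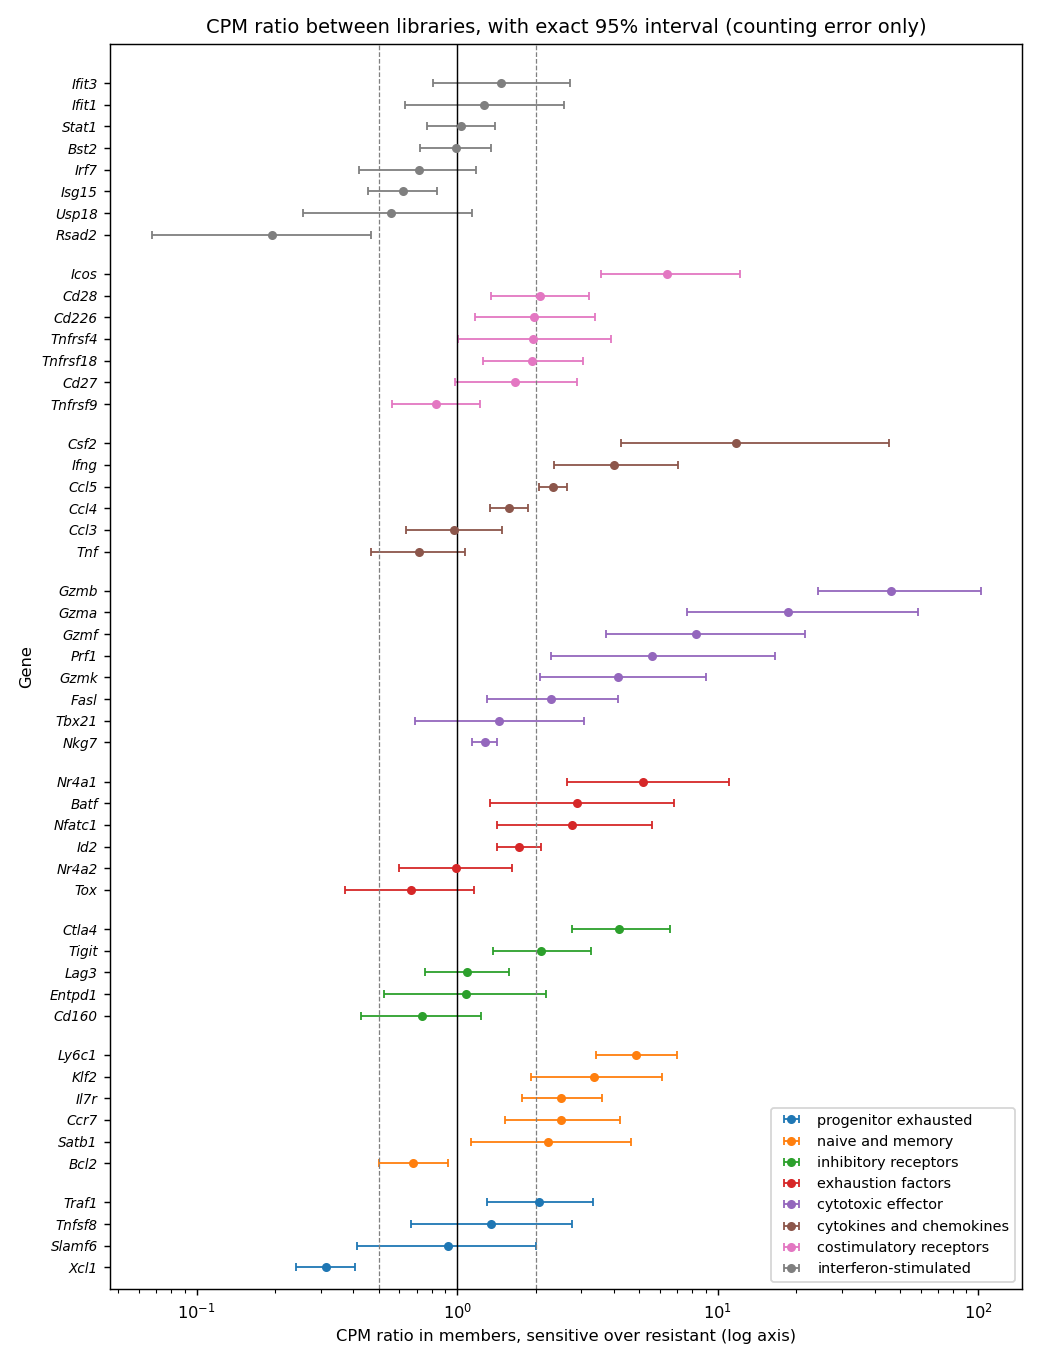
Ratio of CPM in members, sensitive over resistant (horizontal log axis), for genes of 8 lists with at least 30 UMIs in members and a UMI in both libraries; points are ratios, bars exact 95% intervals for counting error, dashed lines 2-fold. Gzmb stands farthest to the right at 46.4 and Rsad2 and Xcl1 farthest to the left at 0.20 and 0.31.

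Il7r, which encodes the survival cytokine receptor CD127 (chromosome 15, 9505788 to 9530176, minus strand), was seen in nearly all sensitive members. Sensitive members ranged from 0 to 7 UMIs with a median of 2 and 37 of 40 had at least 1, while resistant members ranged from 0 to 5 with a median of 1 and 22 of 39 had at least 1. The ranges of the libraries overlapped. The CPM was 487 and 194, a ratio of 2.51 (1.77 to 3.60), and in cells thinned to 1000 UMIs the shares were 45.0% (29.3 to 61.5) and 10.3% (2.87 to 24.2). The thinned shares in Pdcd1+ cells without Tcf7 or Havcr2 were 21.7% and 17.4%, and the CPM there was 262 and 196. In Tcf7+ cells without Pdcd1 or Havcr2 they were 28.4% (27 of 95) and 13.3% (6 of 45), at 355 and 199 CPM.

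Other naive and memory genes leaned the same way. Klf2, which keeps T cells in circulation, had 50 and 18 UMIs (3.34-fold, 1.92 to 6.09) in 15 and 6 members, and Ly6c1, a surface protein of memory cells, 165 and 41 UMIs (4.85-fold, 3.42 to 7.0) in 24 and 10 members. Fibroblast-gated cells held both genes in larger shares than members when thinned to 1000 UMIs, Ly6c1 in 71.1% and 80.2% against 37.5% and 12.8%, and Klf2 in 19.1% and 19.6% against 17.5% and 2.56%. Fibroblast markers were seen in 11 sensitive and 4 resistant members, and in the 29 and 35 members without any UMI of them Ly6c1 was 5.09-fold (3.43 to 7.72) and Klf2 4.15-fold (2.36 to 7.58). Ccr7 had 52 and 25 UMIs (2.50-fold, 1.53 to 4.21), but 23 of the 52 lay in 1 sensitive cell, and it was seen in 7 and 6 members, a like share. Satb1, a chromatin organiser, was 2.24-fold (1.13 to 4.63), but 1.65-fold with doublets removed, 1.52-fold as a mean over cells and 1.62-fold among members without Itgae and Ly6c2. With cells kept up to 5% mitochondrial UMIs, of which members had medians of 2.47% and 4.90%, Klf2 was 1.97-fold, Ccr7 1.63-fold and Satb1 1.73-fold, all short of 2-fold, while Il7r was 2.93-fold and Ly6c1 4.26-fold. Bcl2, the survival gene, was the exception at 70 and 124 UMIs (0.68-fold, 0.50 to 0.92). Thinned to 1000 UMIs Bcl2 was 0.274-fold, in 17.5% and 43.6% of members. Lef1, a transcription factor related to TCF-1, was seen in 5 sensitive and 2 resistant members.

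Icos, an inducible costimulatory receptor (chromosome 1, 60977927 to 61000320, plus strand), was higher across many sensitive members. Sensitive members held 0 to 9 UMIs with a median of 1 and 26 of 40 had at least 1, and resistant members held 0 to 2 with a median of 0 and 11 of 39 had at least 1. No resistant cell exceeded 2 UMIs. Summed, 74 and 14 UMIs gave a ratio of 6.36 (3.56 to 12.2). Il21r, the receptor for interleukin 21, had 39 UMIs in 21 sensitive members and 5 UMIs in 5 resistant members (9.39-fold, 3.70 to 30.5). Ctla4, an inhibitory receptor, had 101 UMIs in 21 and 29 UMIs in 12 members (4.19-fold, 2.75 to 6.58), whereas Lag3 at 59 and 65 UMIs was 1.09-fold (0.76 to 1.58). Tigit, an inhibitory receptor for nectin-family ligands, was 2.11-fold (1.38 to 3.27), and 1.91-fold when scaled to the median gene.

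The same lean of Icos and Ctla4 was present in PD-1+ cells that are not members. Icos was at 276 and 93.8 CPM in Pdcd1+ cells without Tcf7 or Havcr2 and at 455 and 154 CPM in Pdcd1+ Havcr2+ cells, against 353 and 55.5 CPM in members. In Tcf7+ cells without Pdcd1 it was at 116 and 95.5 CPM. For Ctla4 the values were 356 and 158, 523 and 242, and 148 and 111 CPM in these classes, against 482 and 115 in members. No difference between classes in this lean was tested. Over the alternatives tried the ratio of members ran from 5.94 to 11.9 for Il21r and from 1.91 to 3.68 for Tigit.

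Gzmb, the apoptosis-inducing granzyme B (chromosome 14, 56258838 to 56262260, minus strand), had the highest ratio of sensitive to resistant members among genes with at least 30 UMIs, through a part of the cells. Sensitive members ranged from 0 to 105 UMIs with a median of 0, and 13 of 40 (32.5%) had at least 1. The 4 highest sensitive cells held 288 of the 347 UMIs. Resistant members ranged from 0 to 3 with a median of 0, and 4 of 39 (10.3%) had at least 1. Of the 13 sensitive cells 5 had no more than 3 UMIs, within the range of the resistant cells. The CPM was 1656 and 35.7, a ratio of 46.4 (24.2 to 102), and over the alternatives tried the ratio ran from 25.3 with the Itgae and Ly6c2 conditions to 54.6 after thinning. In the other classes Gzmb was also higher in the sensitive library, at 952 and 378 CPM in Pdcd1+ cells without Tcf7 or Havcr2, 3139 and 1395 in Pdcd1+ Havcr2+ cells, and 249 and 215 in Tcf7+ cells without Pdcd1. Prf1 had 28 UMIs in 11 sensitive members and 6 UMIs in 5 resistant members (5.62-fold, 2.28 to 16.6), and Gzmk 38 and 11 UMIs (4.16-fold, 2.08 to 9.02), with ranges over the alternatives of 4.57 to 10.7 and 2.63 to 7.56. Prf1 and Gzmk also leaned to the sensitive library in the other classes. Thinned shares of Prf1 were 16.6% and 6.42% in Pdcd1+ cells without Tcf7 or Havcr2. They were 36.3% and 21.8% in Pdcd1+ Havcr2+ cells and 8.42% and 2.22% in Tcf7+ cells without Pdcd1. For Gzmk they were 15.7% and 4.23%, 22.4% and 9.62%, and 29.5% and 11.1%. No difference between classes in this lean was tested. Nkg7, a gene of cytotoxic granules, was in 39 members of each library at 3322 and 2609 CPM (1.27-fold, 1.14 to 1.42).

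Some large ratios rested on single cells. Of 77 sensitive Gzma UMIs 65 lay in 1 cell, of 39 Csf2 UMIs 28, and all 48 Gzmf UMIs were in 1 cell, so that the ratios of 18.5, 11.7 and 8.26 describe few cells. The protease inhibitor genes Serpinb9 and Serpinb6b, at 6.50 and 6.02, were seen in 9 and 6 sensitive members and in 4 and 5 resistant ones. Tmem176b, at 5.35, was seen in 10 and 5. With the Itgae and Ly6c2 conditions kept Serpinb9 was 1.35-fold and Tmem176b 2.03-fold.

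Cytokine and activation genes followed in part. Ccl5, a chemokine for T cells and monocytes (chromosome 11, 83525778 to 83530518, minus strand), ranged from 0 to 132 UMIs with a median of 3 in sensitive members and from 0 to 86 with a median of 1 in resistant ones, 3537 and 1518 CPM (2.33-fold, 2.06 to 2.64). It was 1.44-fold with cells up to 5% mitochondrial UMIs and 3.50-fold with the Itgae and Ly6c2 conditions. All CD8+ cells together leaned the same way, at 6650 and 2583 CPM of Ccl5. Ifng, interferon gamma, had 63 and 19 UMIs (3.99-fold, 2.36 to 7.06). Tnf had 39 and 66 UMIs (0.71-fold, 0.47 to 1.07), with 51 of the 66 in 1 resistant cell, and without the highest cell of each library the ratio was 2.17. Ccl4 was 1.58-fold, in 28 and 13 members with 133 of the 250 resistant UMIs in 1 cell, and ran from 0.404 (among members without Itgae and Ly6c2) to 2.97 over the alternatives. Ccl3 was 0.98-fold, with a range of 0.560 to 1.68. Nr4a1, an early gene of receptor signalling, was 5.14-fold (2.63 to 11), and 2.70-fold among members without Itgae and Ly6c2, and Junb 2.80-fold (2.40 to 3.28) higher, while Nr4a2 was 0.99-fold and Tox, at 21 and 38 UMIs in 11 and 24 members, 0.67-fold (0.37 to 1.16), and 1.35-fold among members without Itgae and Ly6c2. Ifngr1, a chain of the interferon gamma receptor, was 2.75-fold (2.0 to 3.82), Cxcr3 2.74-fold (1.54 to 5.07) and Itgb7 3.10-fold (1.84 to 5.40), but Itgb7 was 0.953-fold among members without Itgae and Ly6c2. Cxcr4 had 26 UMIs in 9 sensitive members and 0 in resistant ones, under the minimum of 30 UMIs for a comparison.

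Xcl1 (chromosome 1, 164931644 to 164935527, minus strand) went the other way. Sensitive members held 0 to 14 UMIs with a median of 0 and 16 of 40 had at least 1, and resistant members held 0 to 62 with a median of 3 and 28 of 39 had at least 1. Resistant members thus held Xcl1 more often and in larger amounts, with overlapping ranges. The CPM was 363 and 1158, a ratio of 0.31 (0.24 to 0.40), and thinned to 1000 UMIs the shares were 17.5% (7.34 to 32.8) and 41.0% (25.6 to 57.9). The thinned shares in Pdcd1+ cells without Tcf7 or Havcr2 were lower, at 9.46% and 17.1%. By sum, Xcl1 was there at 559 and 464 CPM, so that members were 0.65-fold (0.51 to 0.82) of those cells in the sensitive and 2.49-fold (2.20 to 2.82) in the resistant library, and 1.69-fold there with cells up to 5% mitochondrial UMIs. In Tcf7+ cells without Pdcd1 or Havcr2 Xcl1 was at 286 and 486 CPM with thinned shares of 6.32% and 15.6%, and members were 1.27-fold (0.936 to 1.71) and 2.38-fold (1.92 to 2.97) of them. Over Pdcd1+ Havcr2+ cells members were 1.64-fold (1.26 to 2.12) and 3.92-fold (3.38 to 4.55). Of the interferon-stimulated genes, Isg15 at 68 and 132 UMIs was 0.62-fold (0.46 to 0.84) and Rsad2, viperin, at 6 and 37 UMIs in 2 and 7 members, 0.20-fold (0.07 to 0.47). Among members without Itgae and Ly6c2, Isg15 was 0.251-fold, past 2-fold.

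**Figure D5:**
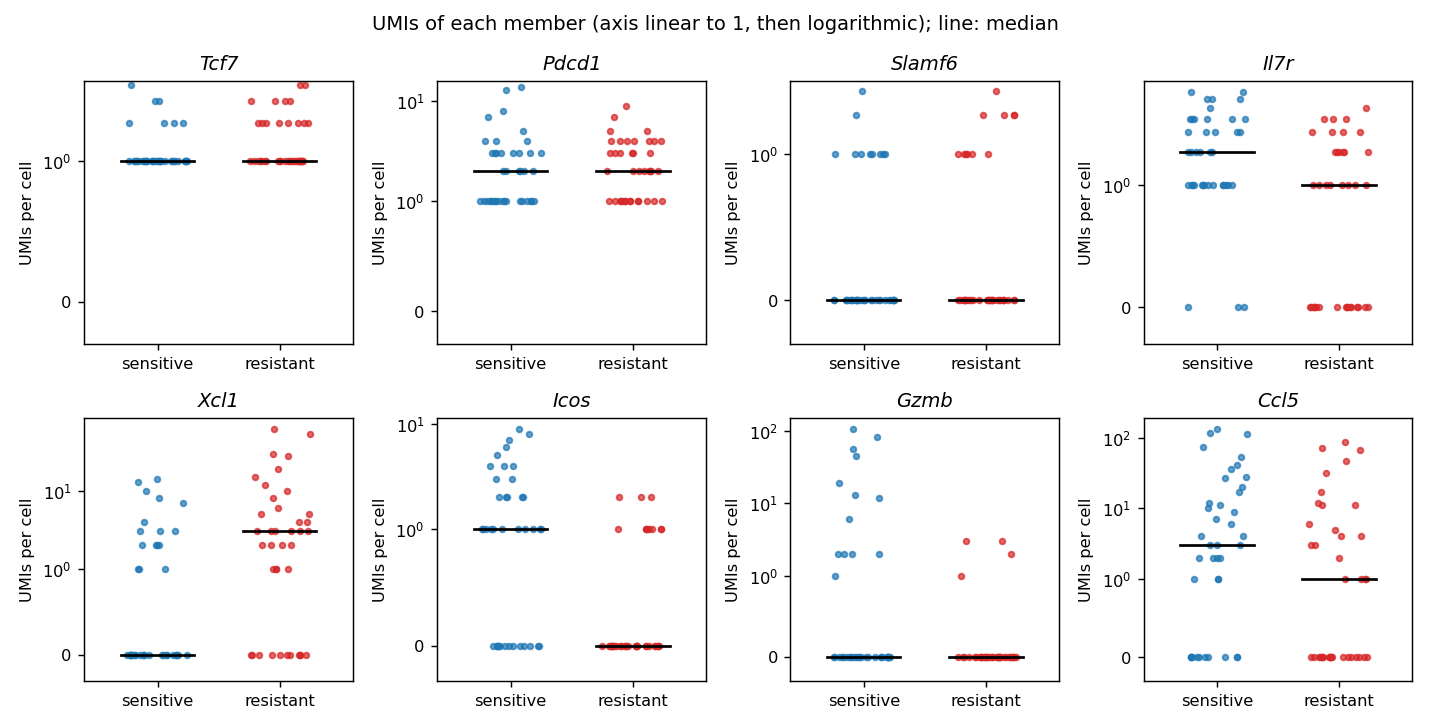
UMIs per cell (vertical axis, linear up to 1 and logarithmic above) of 8 genes in the 40 sensitive (blue) and 39 resistant (red) members; each point is a cell and the black line the median. Tcf7 and Pdcd1 were used to choose the cells; Il7r and Icos are higher over many sensitive cells, Gzmb through a few of them (4 cells hold 288 of 347 UMIs), and Xcl1 is higher in resistant cells (medians 0 and 3).

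The genes lowest in sensitive members included those of other cell types. Among the 10 lowest were Cxcl2, S100a9, Wfdc17, S100a8, Mt2, Il1b, Hmox1, Mt1 and Lyz2, myeloid genes and metallothioneins for the most part. S100a9, a calprotectin chain of neutrophils, had 1 UMI in sensitive members and 243 in resistant ones, of which 242 lay in 1 cell. The 5 neutrophil markers summed to 1 UMI in sensitive members, with 4 markers at 0, and to 377 UMIs in 4 resistant members, with none at 0. The 5 macrophage markers gave 3 and 60 UMIs, the 5 fibroblast markers 21 and 4, and the 5 cancer markers 1 and 6. With the 3 resistant members that held 10 or more UMIs of these markers left out, the genes at least 2-fold lower in sensitive members fell from 64 to 33, and Mt1 was 0.75-fold instead of 0.07-fold. Cdkn1a, a p53 target, was 0.40-fold (0.20 to 0.75) with 34 of its 42 resistant UMIs in 1 cell, and stood at 14 and 2 UMIs once these members were left out. The part of such cells in the results was not tested beyond these values.

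Members also varied among themselves. The 10 Slamf6+ sensitive members had Ccr7 at 749 CPM in 4 cells, against 53.1 CPM in 3 of the 30 without Slamf6, while Prf1 was at 17 and 179 CPM and Xcl1 at 272 and 398 CPM. In the resistant library the 11 Slamf6+ members had Xcl1 at 463 CPM in 6 cells and the 28 others at 1397 CPM in 22, and Ccl5 at 2981 and 1013 CPM. The 13 Gzmb+ sensitive members had Ccr7 in 1 cell and the 27 without Gzmb in 6. These splits were made on the same few cells and are given as a description.

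The receptor beta variable segments of members were diverse. A Trbv segment was seen in 34 of 40 sensitive and 30 of 39 resistant members, with 15 and 10 segments in all. Trbv13-2 was the most frequent in sensitive members, in 13 (32.5%, 18.6 to 49.1), and was seen in 3 resistant members (7.69%, 1.62 to 20.9), while all CD8+ cells held it in 22.9% and 20.9%. Trbv19 was seen in 12.5% and 23.1% of members and in 8.92% and 14.5% of CD8+ cells, Trbv13-1 in 10.0% and 20.5% of members, Trbv29 in 7.5% and 10.3%, and Trbv4 in 0% and 12.8%. All CD8+ cells held Trbv13-1 in 7.08% and 10.4%, Trbv29 in 3.61% and 7.05%, and Trbv4 in 5.31% and 7.86%. Transcripts of a segment do not show a clone.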

How the data were processed

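Droplet single-cell RNA libraries of T cells from sensitive and resistant tumors, 1 per group, were used. Per the file headers the authors made them with Cell Ranger 6.0.0, on mm10 per the submitters' notes, and deposited raw UMI counts per gene and barcode. Groups were taken from the titles. Barcodes under 500 genes or above 10% mitochondrial UMIs were left out. Counts were summed over cells as CPM, and ratios carry exact conditional binomial intervals. Shares carry exact Clopper-Pearson ones. Zeros were read at a floor of 3 UMIs. Genes needed 30 UMIs in the cells compared. The ratio intervals were tested on simulated counts with independent UMIs, and the thinning on the sensitive CD8+ cells. The simulation did not cover genes whose UMIs lay in few cells, for which the intervals can be too narrow. The planned Itgae and Ly6c2 conditions left under 50 cells, so members and the Pdcd1+ Tcf7- Havcr2- class were both taken without them. Named genes were the fixed lists, the 10 highest and 10 lowest ratios of each comparison and the 5 commonest receptor beta segments; Gzme and the genes of the splits were chosen after their values were seen. Members and lists were chosen with earlier results of these data known. CD8+ cells were clustered with scanpy 1.11.5 (15 neighbours, Leiden). Doublets were kept, and removed as an alternative (Scrublet scores, 112 and 159 cells, 6 and 5 of them members). Gene coordinates are from GENCODE for GRCm38 (mm10). Some genes that these choices name are not reported here.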

Additional observations from a re-analysis of the deposited data

Results flagged for a closer look

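For 3 genes the ratio of members to another class ran in opposite directions in the sensitive and resistant libraries, each past 2-fold. With 1 library per group the difference between the libraries was not tested. Gzmb in members was 6.64-fold of Tcf7+ Pdcd1- Havcr2- cells in the sensitive library (347 and 101 UMIs) and 0.166-fold in the resistant library (9 and 54 UMIs). Gzma against the same cells was 7.45-fold and 0.156-fold, with 65 of the 77 sensitive UMIs in 1 cell. With the Itgae and Ly6c2 conditions the sensitive Gzma value was 0.299-fold (1 and 20 UMIs), the same direction as in the resistant library. Gzmf against Pdcd1+ Tcf7- Havcr2- cells was 10.2-fold and 0.315-fold, with all 48 sensitive UMIs in 1 cell, which was removed with the doublets. Samples per group were too few for a search for outlying samples.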

How the results depend on the processing

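With 1 library per group no test was possible, no library could be left out, and depth limits every call, since most members held 1 UMI of Tcf7. No paired analysis was possible because each group had 1 library. Keeping the Itgae and Ly6c2 conditions, leaving out cells with markers of other cell types or any fibroblast marker, leaving out the cell highest for a gene and drawing other thinning seeds were alternatives chosen after seeing the data. The ratio of member shares was 1.17 thinned to 1000 UMIs and 5.59 (1.16 to 26.9) at up to 20% mitochondrial UMIs (7 of 1352 and 2 of 2159 cells), and it ran between 0.490 and 3.47 under the others, all with intervals that included 1. Alternatives that changed the cell filters also drew the thinned UMIs anew, so their ratios include the spread between draws. Counts of genes past 2-fold followed the minimum of UMIs. Sensitive over resistant, 152 became 1560, 665 and 29 at minimums of 1, 10 and 100 UMIs, 21 after thinning and 87 with the Itgae and Ly6c2 conditions. Under, 64 became 863, 324 and 18, 17 after thinning, 33 without cells of mixed markers and 34 without the highest cell. Over Pdcd1+ Havcr2+ cells 25 became 280, 96 and 7, and 3 after thinning, and under them 89 became 159, 159 and 30, and 31 after thinning. Over Tcf7+ Pdcd1- cells 20 became 150, 69 and 1, and 1 after thinning, and under them 37 became 303, 148 and 6, 0 after thinning and 1 without mixed cells. Over Pdcd1+ Tcf7- Havcr2- cells 31 became 226, 98 and 7, 10 after thinning and 20 at up to 5% mitochondrial UMIs. Under them 207 became 99 at 100 UMIs, 44 after thinning, 70 with the conditions and 63 without mixed cells. Fewer genes entered at higher minimums and after thinning. The share of members in the 3 clusters with most of them was 67.1% at resolution 0.5.

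Of the values of named genes under alternatives 746 moved little, 146 moved and 15 changed direction (zeros at the floor of 3 UMIs, without values whose direction a 0 left undetermined), and the cause was not tested. With mixed cells left out, Cdkn1a was 7.10-fold between libraries (1.04-fold as a mean over cells), sensitive Col1a1 1.52-fold over Pdcd1+ Havcr2+ cells and 1.16-fold over Pdcd1+ Tcf7- Havcr2- cells, Id3 4.71-fold over the latter (resistant), and Col3a1 1.06-fold over them (resistant) and 1.28-fold over Tcf7+ Pdcd1- cells (sensitive). With doublets removed Gzmf was 0.583-fold between libraries and 0.772-fold over Pdcd1+ Tcf7- Havcr2- cells (sensitive). At up to 5% mitochondrial UMIs resistant Cxcl10 was 0.481-fold of Pdcd1+ Havcr2+ and 0.954-fold of Pdcd1+ Tcf7- Havcr2- cells. With the Itgae and Ly6c2 conditions Itgb7 was 0.953-fold between libraries, sensitive Gzma 0.299-fold of Tcf7+ Pdcd1- cells, sensitive Ifit3 0.517-fold of Pdcd1+ Tcf7- Havcr2- cells and resistant Id3 2.41-fold of them.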
